A study of Mus musculus with 14 samples.

Results

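The 27 genes described here make or handle cholesterol, or control its synthesis through the transcription factor SREBP2. They were chosen by name and role with earlier results of these data known, although no measured value enters the rule: 5 regulators, 8 genes of the mevalonate and isoprenoid steps, 11 genes of the squalene and sterol steps and 3 genes of sterol transport. All 27 were found among the 35449 genes in the files, and all 27 passed the filter on low counts in each of the 5 comparisons. The series examined primary cell lines from mouse embryos at E13.5, labelled KO or WT for a targeted H3f3a allele. The title of the series calls this allele knockout-first. H3f3a is 1 of the genes that encode the histone variant H3.3. Untreated lines fell into 4 groups: KO neurospheres (3 lines) and WT neurospheres (3 lines), which are neural stem and precursor cultures started from heads, and KO MEFs (5 lines) and WT MEFs (3 lines), which are embryonic fibroblasts grown from body tissue without internal organs. Each line was 1 library of 3′ end tags, and the label KO was the only genotype difference stated between lines of a cell type.

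Cells make cholesterol from acetyl-CoA through mevalonate, isoprenoid, squalene and lanosterol intermediates. When sterols in the endoplasmic reticulum are scarce, Scap escorts the SREBP2 precursor to the Golgi apparatus, where it is cleaved, and the released factor switches on nearly every enzyme gene of the pathway. When sterols are plentiful, the Insig proteins hold Scap back, and the nuclear receptor LXR, activated by oxysterols, favours export genes such as Abca1. The developing brain makes most of its own cholesterol, and human fibroblasts were among the cells in which much of this control was worked out.

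In neither cell type did any of the 27 genes pass the test for a difference between KO and WT lines. Lines of the same genotype differed from each other, more so in neurospheres, where most enzyme genes were low in the same lines. The differences that passed the test lay between the cell types: the sterol transport genes Abca1 and Npc1 and the reductase gene Tm7sf2 were higher in neurospheres, and the thiolase gene Acat2 and the sterol carrier gene Stard4 were lower there, in both genotypes.

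Library totals ran from 1669406 counts (KO neurospheres 2) to 3296178 counts (WT MEFs 3). Levels are given as CPM, counts scaled to library size with TMM factors over all 14 libraries, and log2 differences come from edgeR fits. H3f3a itself stood at 26.3 to 70.9 CPM in KO neurospheres against 1970 to 2417 CPM in WT neurospheres, and at 7.29 to 18.8 CPM in KO MEFs against 847 to 1427 CPM in WT MEFs. The summed level of 12 fibroblast markers was 67.3 to 197 CPM in neurospheres and 17639 to 26879 CPM in MEFs. Neural stem and precursor markers summed to 7778 to 13801 CPM in neurospheres and 4212 to 5215 CPM in MEFs, where Olig2 had no counts; the list includes Vim, which fibroblasts also express. KO MEFs 3 and WT MEFs 2 stood apart from the other MEF lines over all tested genes, with a mean Spearman correlation of 0.897 and 0.886 to the other lines, against 0.936 to 0.942 for the remaining lines. In neurospheres KO neurospheres 2 had the lowest such value, 0.881, while the other lines lay between 0.895 and 0.921. The labels do not state which embryos the lines came from, so the p-values measure only the spread between these lines.

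The promoter bases below show what several enzyme and regulator genes share in sequence. SREBP factors are known to bind short sterol response elements, usually with help from factors at CCAAT or GC boxes nearby. Windows of 250 bases before and 50 bases after the annotated start were at hand for 22 of the 27 genes, from RefSeq on GRCm38.p6. The letters TCACNNCA, in which N is any base, were searched on both strands and occurred in 10 of these 22 genes, against 15.7% of all 27025 genes with such a window. The stricter TCACNCCAC occurred only in Hmgcs1 among the 22, against 1.44% of all genes. CCAAT occurred in 19 of 22 genes, against 41.1% of all genes, and GGGCGG in 20 of 22, against 38.2%. Members with several windows had more chances of a match, and the motif letters were chosen with these windows in view. The 250 bases before the start of 4 genes are shown 5′ to 3′: the pathway's own regulator, an early and a late enzyme, and Abca1, an LXR target whose window held neither TCACNNCA nor CCAAT. Capitals mark TCACNNCA and CCAAT on either strand.
Srebf2 chr15:82147019-82147268 (plus strand): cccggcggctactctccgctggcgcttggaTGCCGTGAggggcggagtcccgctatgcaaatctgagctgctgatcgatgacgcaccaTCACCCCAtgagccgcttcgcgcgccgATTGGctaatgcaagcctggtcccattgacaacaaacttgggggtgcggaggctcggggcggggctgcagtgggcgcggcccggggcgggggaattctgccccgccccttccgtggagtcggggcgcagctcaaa
Hmgcs1 chr13:119690101-119690350 (plus strand): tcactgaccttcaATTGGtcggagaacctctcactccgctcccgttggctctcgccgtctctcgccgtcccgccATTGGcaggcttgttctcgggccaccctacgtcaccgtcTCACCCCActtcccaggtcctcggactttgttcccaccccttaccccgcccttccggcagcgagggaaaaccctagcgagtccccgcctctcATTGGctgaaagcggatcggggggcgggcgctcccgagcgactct
Cyp51 chr5:4104698-4104947 (minus strand): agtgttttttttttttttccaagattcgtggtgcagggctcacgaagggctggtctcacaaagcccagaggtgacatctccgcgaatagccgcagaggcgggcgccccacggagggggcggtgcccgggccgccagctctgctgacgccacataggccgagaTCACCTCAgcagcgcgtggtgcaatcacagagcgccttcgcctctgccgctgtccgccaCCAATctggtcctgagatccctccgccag
Abca1 chr4:53159896-53160145 (minus strand): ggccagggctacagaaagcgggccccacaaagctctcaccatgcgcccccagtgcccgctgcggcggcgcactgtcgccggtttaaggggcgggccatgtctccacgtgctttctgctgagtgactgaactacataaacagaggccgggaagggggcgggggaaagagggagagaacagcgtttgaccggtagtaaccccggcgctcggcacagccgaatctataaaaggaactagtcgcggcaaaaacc

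Whether loss of H3f3a altered the pathway in neural cells was addressed by KO against WT neurospheres. None of the 27 genes passed edgeR's quasi-likelihood test at an adjusted p under 0.05, and none had an unadjusted p under 0.05; DESeq2 also called none. The background was low as well: 1 of 10624 genes tested was called, which is 0.00941%, and 2.14% had an unadjusted p under 0.05. Log2 differences were negative for 22 genes and positive for 5, while 51.3% of all genes tested were positive. Their median was -0.25, beside 0.01 over all genes tested. The 19 enzyme genes had 17 negative values and a median of -0.31. This median over the 27 genes moved with single lines: it was -0.71 without KO neurospheres 3 and -0.087 without KO neurospheres 2. Leaving out WT neurospheres 1 gave -0.53, WT neurospheres 2 -0.16 and WT neurospheres 3 -0.079. With KO neurospheres 3 and WT neurospheres 2 both left out it was -0.53. In these bulk cultures fewer cells of a type and less RNA per cell cannot be told apart.

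Among the regulators, Srebf2 stood at 114, 55.3 and 150 CPM in the 3 KO neurosphere lines and at 79.7, 190 and 145 CPM in the WT lines. KO neurospheres 2 was lowest and WT neurospheres 2 highest, and the groups overlapped. The log2 difference was -0.36 (SE 0.43, edgeR adjusted p = 1.00, n = 3 lines each). Over single lines left out it ran from -0.71 (KO neurospheres 3) to -0.05 (WT neurospheres 2), and was -0.06 without KO neurospheres 2. Insig1, an SREBP2 target whose product restrains the pathway, had 59.5, 15.6 and 96.6 CPM in KO lines and 52.8, 132 and 160 CPM in WT lines. It had the lowest log2 value of the 27 genes, -0.98 (SE 0.66, edgeR adjusted p = 1.00), and WT neurospheres 1 lay inside the range of the KO lines. Its relative Insig2, which encodes a second anchor for Scap, had 49.2, 66.7 and 63.0 CPM in KO lines against 38.7, 28.5 and 50.1 CPM in WT lines. The highest WT line was just above the lowest KO line. Its log2 difference was 0.62 (SE 0.28, unadjusted p = 0.0574, edgeR adjusted p = 1.00), the smallest p among the members. Scap, the escort protein gene, differed by 0.13, with 34.9 to 46.6 CPM in KO and 30.3 to 40.9 CPM in WT lines.

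Srebf1, which encodes the SREBP form tied mainly to fatty acid genes, behaved unlike the enzymes across the lines. It had 14.5, 60.7 and 8.75 CPM in KO lines and 17.6, 3.27 and 23.1 CPM in WT lines. KO neurospheres 2, the line lowest in most enzymes, was the highest here, and WT neurospheres 2 had only 7 counts. The log2 difference of 0.91 had a 95% interval from -1.20 to 3.01.

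Of the mevalonate and isoprenoid genes, Acat2 was the member whose KO and WT neurosphere lines did not overlap. Its product, the cytosolic thiolase, joins acetyl-CoA units at the entry of the pathway. It had 14.5, 7.82 and 24.5 CPM in KO lines and 25.7, 27.1 and 31.6 CPM in WT lines, so the highest KO line fell just short of the lowest WT line. Of all genes tested, 7.20% had groups that did not overlap, and 3.86% did so with KO lower, so 1 gene of 27 is near the background. The log2 difference was -0.81 (SE 0.41, edgeR adjusted p = 1.00). Hmgcs1, which encodes the synthase of the next step, had 475, 197 and 823 CPM in KO lines against 395, 812 and 776 CPM in WT lines. Each genotype thus held low and high lines, and the log2 difference was -0.39 (SE 0.52, edgeR adjusted p = 1.00).

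The kinase genes Mvk and Pmvk, the decarboxylase gene Mvd, the geranylgeranyl diphosphate synthase gene Ggps1 and the farnesyl diphosphate synthase gene Fdps had log2 values between -0.20 and 0.15 in neurospheres. Fdps is uncertain, since the end of its transcript matches 5 other genes, of which the predicted gene Gm43738 held 317 counts beside 1155 for Fdps over all libraries. Idi1, the isomerase gene that makes the reactive isoprenoid unit, had 103, 28.9 and 122 CPM in KO lines and 64.7, 42.5 and 312 CPM in WT lines. A single WT line was far above the other 5, and the log2 difference of -0.71 had a 95% interval from -2.77 to 1.35. Ggps1 was the steadiest enzyme gene, with 78.1 to 104 CPM in KO lines and 85.4 to 95.3 CPM in WT lines.

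All 11 genes of the squalene and sterol steps had negative log2 values in KO neurospheres, from -0.76 to -0.01, and none passed the test. Fdft1, the squalene synthase gene at the branch to sterols, had 14.9, 4.81 and 35.0 CPM in KO lines and 16.1, 33.2 and 40.9 CPM in WT lines. Its log2 difference was -0.67 (SE 0.66, edgeR adjusted p = 1.00), and KO neurospheres 2 held only 8 counts. Sqle, the squalene epoxidase gene, had 76.8, 36.1 and 176 CPM in KO lines and 49.4, 168 and 176 CPM in WT lines. The groups covered nearly the same range, with a log2 difference of -0.42 (SE 0.68, edgeR adjusted p = 1.00).

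Dhcr7, whose product carries out a last reduction to cholesterol, had 9.50, 6.61 and 14 CPM in KO lines and 11.5, 21.5 and 19.2 CPM in WT lines. Its log2 difference was -0.76 (SE 0.41, edgeR adjusted p = 1.00), and the highest KO line lay above the lowest WT line. The methylsterol oxidase gene Msmo1 differed by -0.31 (SE 0.27, edgeR adjusted p = 1.00). Cyp51, the lanosterol demethylase gene, spanned 27.7 to 199 CPM in KO lines and 60.9 to 249 CPM in WT lines. Lanosterol synthase gene Lss, the dehydrogenase gene Nsdhl, the ketoreductase gene Hsd17b7, the isomerase gene Ebp, the desaturase gene Sc5d and the reductase gene Tm7sf2 lay between -0.65 and -0.01. Single lines moved the enzyme values widely. Without KO neurospheres 3 the log2 difference was -1.22 for Sqle, -1.58 for Fdft1, -0.99 for Hmgcs1, -1.32 for Acat2 and -1.61 for Insig1. Without KO neurospheres 2 it was -0.04 for Sqle, -0.25 for Fdft1, -0.01 for Hmgcs1, -0.51 for Acat2 and -0.54 for Insig1. Counts were small for Ebp, with 7 in KO neurospheres 1 and 5 in KO neurospheres 2.

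The transport genes had log2 values from -0.30 to -0.16 in KO neurospheres. Npc1, which moves cholesterol out of lysosomes, had 193, 89.6 and 74.9 CPM in KO lines and 214, 90.6 and 125 CPM in WT lines. Line 1 was the highest in both genotypes. Abca1, which exports cholesterol from the cell, had 276, 432 and 196 CPM in KO lines and 404, 365 and 250 CPM in WT lines. Stard4, a cytosolic sterol carrier gene, had 14.9, 7.82 and 35.0 CPM in KO lines and 12.6, 29.0 and 31.6 CPM in WT lines. Its order over the lines of each genotype was that of the enzyme sum, whereas Abca1 was highest in the line where most enzymes were lowest.

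**Figure D1:**
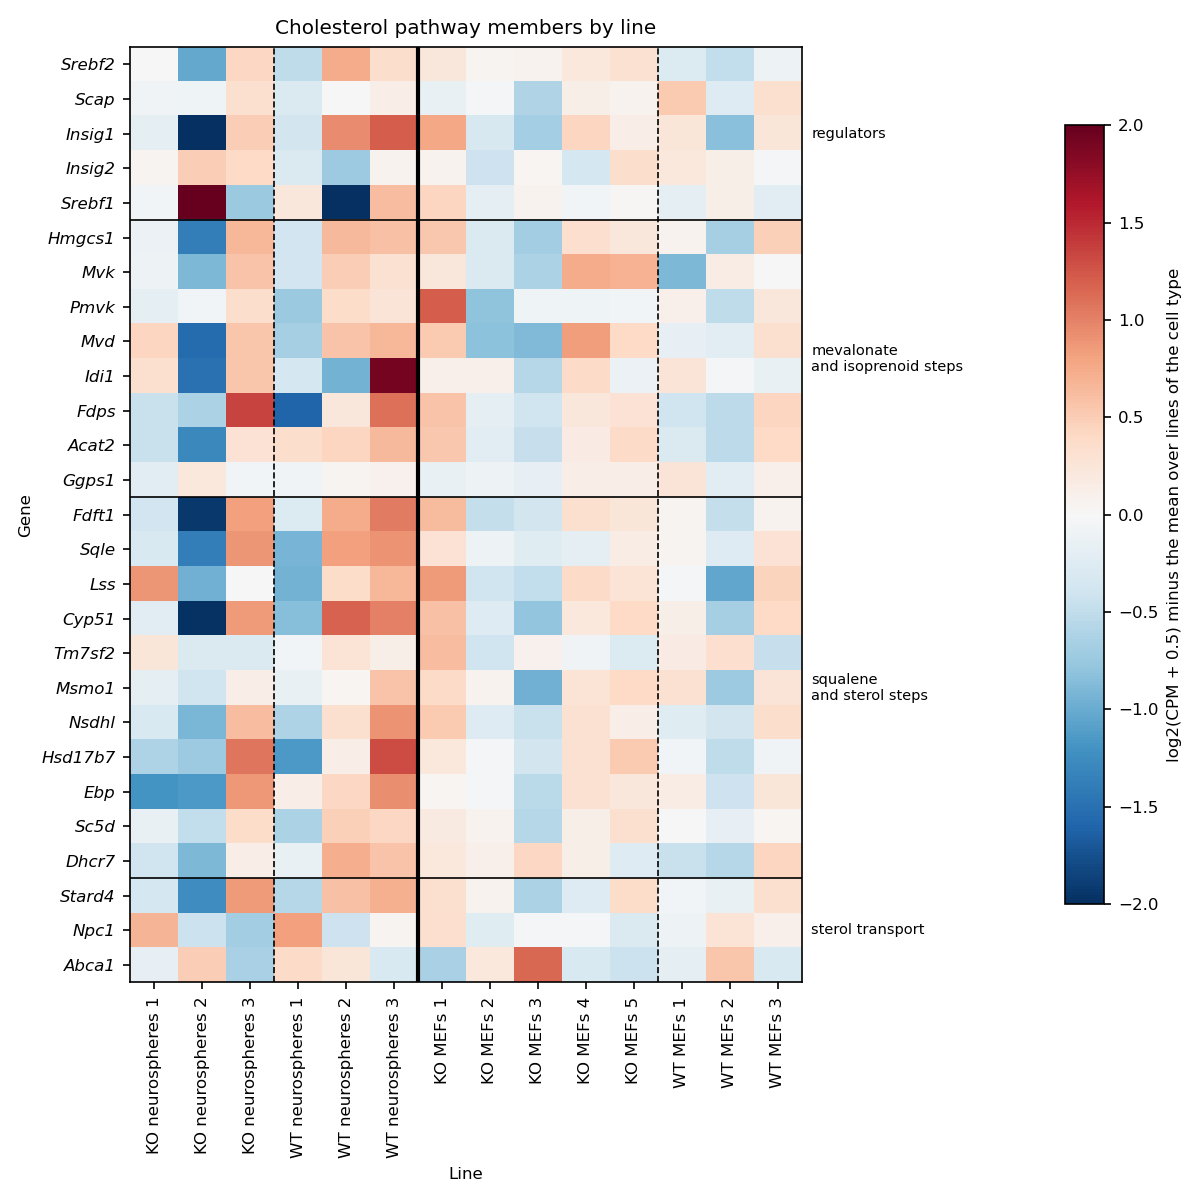
Each cell shows log2(CPM + 0.5) of a gene (rows, by role) in a line (columns) minus the mean over the lines of that cell type, with KO lines left of WT lines; values past 2 or -2 take the end colours. KO neurospheres 2 is low and WT neurospheres 3 high in most enzyme rows, and each genotype holds both low and high lines.

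The same question was asked in fibroblasts by KO against WT MEFs. None of the 27 genes passed edgeR's test at an adjusted p under 0.05, 1 had an unadjusted p under 0.05, and DESeq2 called none. Over all 10785 genes tested 1 was called, which is 0.00927%, and 1.62% had an unadjusted p under 0.05. Log2 differences were positive for 19 genes and negative for 8, while 49.8% of all genes tested were positive. Their median was 0.09, beside -0.0013 over all genes tested. The 19 enzyme genes had 15 positive values and a median of 0.15. Leaving out KO MEFs 1 put the median over the 27 genes at 0.02, KO MEFs 2 at 0.17 and KO MEFs 3 at 0.21. It was 0.33 when WT MEFs 3 was absent and 0.02 when WT MEFs 2 was. With KO MEFs 3 and WT MEFs 2 both left out it was 0.07. The median width of the 95% intervals was 2.34 log2 units in neurospheres and 1.25 in MEFs.

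Srebf2 was the member with the smallest p. It had 158, 139, 141, 155 and 167 CPM in the 5 KO MEF lines and 112, 95.7 and 126 CPM in the 3 WT lines. Every KO line was above every WT line, which held for no other member. Over all genes, 1.85% had groups that did not overlap and 0.918% did so with KO higher, beside which stands 1 gene of 27. Mean levels were 152 ± 11.7 CPM in KO lines (SD, n = 5) and 111 ± 15 CPM in WT lines (SD, n = 3). The log2 difference was 0.45 (SE 0.13, 95% interval 0.15 to 0.75, unadjusted p = 0.00751), but its edgeR adjusted p over all genes was 1.00. It lay between 0.36 and 0.55 when each line was left out in turn, and was 0.38 without KO MEFs 3 and WT MEFs 2.

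The other regulators of SREBP2 did not share this pattern in MEFs. Scap had 22.8, 24.7, 16.5, 27.8 and 26.8 CPM in KO lines and 36.9, 21.2 and 32.0 CPM in WT lines, the lowest log2 value of the members at -0.34 (SE 0.24, edgeR adjusted p = 1.00). WT MEFs 2 lay among the KO lines. Insig1 had 95.6, 44.5, 34.5, 74.9 and 61.1 CPM in KO lines and 65.9, 30.9 and 65.6 CPM in WT lines. Its groups overlapped, and its log2 value of 0.20 (SE 0.36, edgeR adjusted p = 1.00) turned to -0.07 without WT MEFs 2 and to -0.01 without KO MEFs 1. Insig2 differed by -0.14 and Srebf1 by 0.16.

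The enzyme genes of MEFs differed little between genotypes. Mvk, the mevalonate kinase gene, had 11.0, 7.54, 5.83, 16.0 and 15.5 CPM in KO lines and 4.76, 10.4 and 9.45 CPM in WT lines, with a log2 difference of 0.44 (SE 0.41, edgeR adjusted p = 1.00). It was 0.17 without WT MEFs 1, 0.64 without WT MEFs 2 and 0.78 with KO MEFs 3 and WT MEFs 2 both left out. Hsd17b7 had 132, 113, 88.9, 141 and 165 CPM in KO lines and 110, 80.6 and 109 CPM in WT lines. KO MEFs 3 was the KO line below the WT lines 1 and 3, and the log2 difference was 0.35 (SE 0.21, unadjusted p = 0.120, edgeR adjusted p = 1.00). Fdps and Fdft1 differed by 0.24 (SE 0.29) and 0.23 (SE 0.28), each with an edgeR adjusted p of 1.00; over single lines left out Fdps ran from 0.07 to 0.60 and Fdft1 from 0.07 to 0.35.

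Hmgcs1 had 546, 307, 232, 472 and 438 CPM in KO MEFs and 392, 236 and 523 CPM in WT MEFs. The lowest lines of the genotypes were nearly equal, as were the highest. Its log2 difference of 0.05 (SE 0.32, edgeR adjusted p = 1.00) was -0.08 without KO MEFs 1, -0.01 when KO MEFs 4 and -0.19 when WT MEFs 2 was absent, and -0.06 with KO MEFs 3 and WT MEFs 2 both left out. Sqle differed by -0.05 (SE 0.17, edgeR adjusted p = 1.00) and turned to 0.0021 without KO MEFs 3 and to 0.09 without WT MEFs 3. The remaining enzymes (Acat2, Pmvk, Mvd, Idi1, Ggps1, Lss, Cyp51, Tm7sf2, Msmo1, Nsdhl, Ebp, Sc5d and Dhcr7) lay between -0.09 and 0.30. The transport genes Stard4, Npc1 and Abca1 lay between -0.14 and 0.07.

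**Figure D2:**
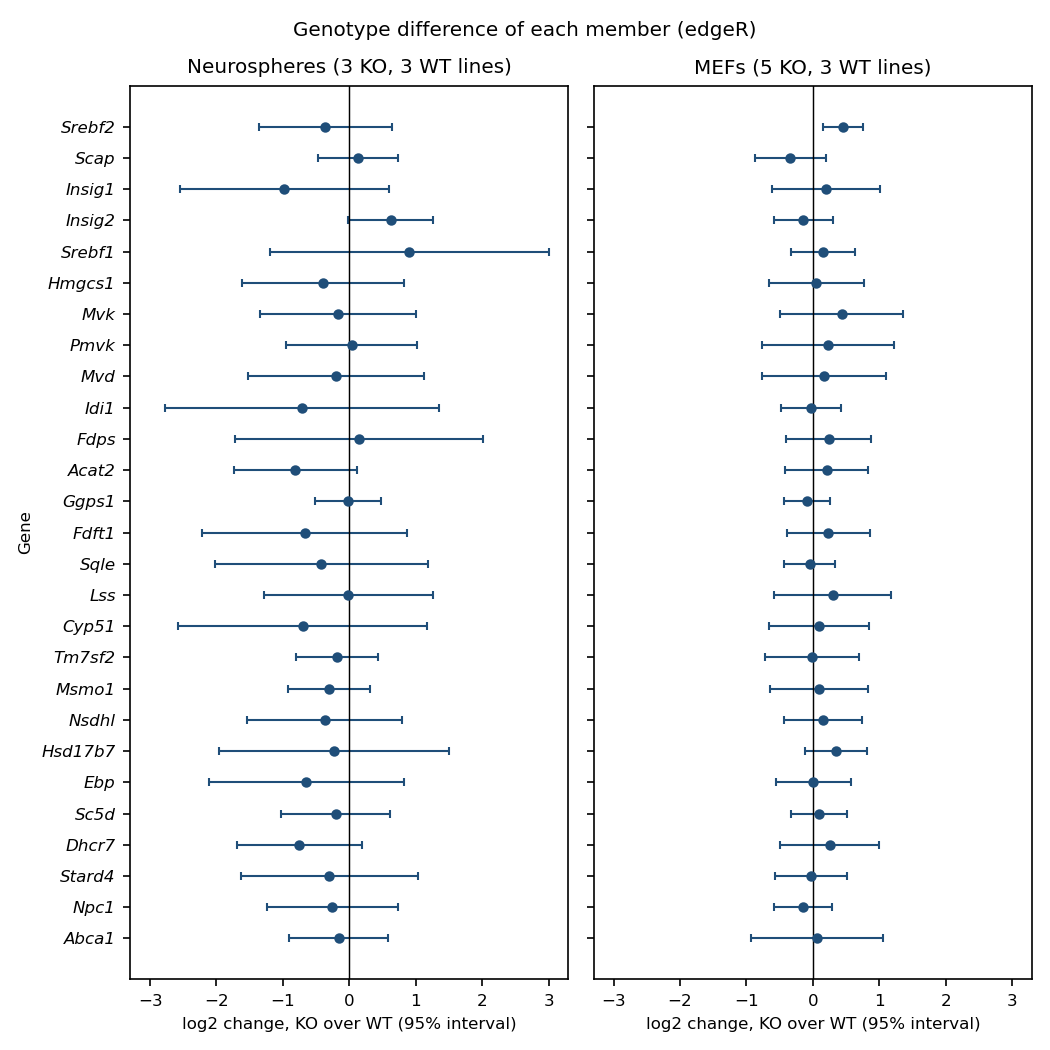
Points are edgeR log2 differences, KO over WT, of each gene in neurospheres (left) and MEFs (right), and bars are 95% intervals. Every interval includes 0 except that of Srebf2 in MEFs, and most neurosphere intervals are wider than those of MEFs.

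Whether the genotype difference itself depended on cell type was tested over all 14 libraries as the difference in neurospheres minus that in MEFs. No member and no other gene among 12113 was called by edgeR, which is 0.00%; 1 member and 3.02% of all genes had an unadjusted p under 0.05. DESeq2 called 3 genes and no member. Of the 27 differences 23 were negative and 4 positive, while 51.0% of all genes were positive, and the median was -0.39, beside 0.01 over all genes tested. Insig2 had the smallest p, with a log2 value of 0.74 (SE 0.34, unadjusted p = 0.0439, edgeR adjusted p = 1.00). Acat2 had -1.03 (SE 0.50), Dhcr7 -1.03 (SE 0.52) and Srebf2 -0.82 (SE 0.44), each with an edgeR adjusted p of 1.00. The median was -1.05 without KO neurospheres 3 and between -1.05 and -0.17 over all lines left out. By sign, 16 genes were negative in neurospheres and positive in MEFs, 6 were negative in both, 3 positive in both and 2 positive in neurospheres and negative in MEFs.

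Lines of the same genotype differed widely. In neurospheres the median ratio of the highest to the lowest line was 3.14 over the KO lines and 2.36 over the WT lines, while the median ratio between KO and WT means, in either direction, was 1.27. In MEFs these medians were 1.98 over KO lines, 1.66 over WT lines and 1.11 between genotypes. A ratio of extremes is larger by construction than a ratio of means, and 5 lines have more room for spread than 3. For 26 of the 27 genes in each cell type the WT lines alone spanned more than the genotype difference. The exceptions were Acat2 in neurospheres and Srebf2 in MEFs. Neither this count nor the medians were worked out over all genes, so they cannot be called particular to the pathway.

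Most of the 19 enzyme genes were low in the same neurosphere lines. Their summed level was 1217, 666 and 1961 CPM in KO neurospheres 1, 2 and 3 and 986, 1892 and 2246 CPM in WT neurospheres 1, 2 and 3. The mean log2 deviation of the enzymes from the mean of the cell type was -0.18, -0.94 and 0.50 in the KO lines and -0.49, 0.38 and 0.73 in the WT lines. Each genotype therefore held a line far below the others of its kind, KO neurospheres 2 and WT neurospheres 1. KO neurospheres 2 was the lowest of all 6 lines for 13 of 19 enzymes, while it was the lowest for 25.6% of all genes tested. WT neurospheres 1 was the lowest WT line for 18 of 19 enzymes, the exception being Idi1. KO neurospheres 3 was the highest KO line for 16 of 19, while Ggps1 was highest in KO neurospheres 2. Shares of all genes within a genotype were not worked out. Over all 6 lines WT neurospheres 1 was the lowest for 4 of 19 enzymes, beside 12.7% of all genes tested. KO neurospheres 3 was the highest of the 6 for 3 of 19, beside 17.8%. Between WT neurospheres 3 and WT neurospheres 2 the enzymes were divided, with 12 of 19 higher in WT neurospheres 3.

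Cell cycle genes varied over the same neurosphere lines. The summed level of 15 such genes was 429, 115 and 2100 CPM in KO neurospheres 1, 2 and 3 and 257, 747 and 1091 CPM in WT neurospheres 1, 2 and 3, so the lines had the same order as for the enzymes within each genotype. KO neurospheres 2 was also the shallowest library, and its oligodendrocyte lineage markers summed to 806 CPM, 696 CPM of it from Olig1, against 1216 to 1876 CPM in the other 5 lines. Neural stem and precursor markers summed to 9535, 13801 and 9302 CPM in KO neurospheres 1, 2 and 3. In WT neurospheres 1, 2 and 3 they summed to 11727, 7778 and 8344 CPM. The line of each genotype with the lowest enzyme sum thus had the highest sum of these markers. Single markers were divided: Fabp7 was highest in these lines (4309 CPM in KO, 3215 CPM in WT), while Nes was lowest there (225 CPM in KO, 345 CPM in WT). The part of the cell cycle, the depth and these markers in the enzyme differences was not tested.

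In MEFs the enzymes summed to 2574, 1813, 1323, 2338 and 2323 CPM in KO lines 1 to 5 and to 2091, 1470 and 2314 CPM in WT lines 1 to 3. Mean log2 deviations were 0.42, -0.22, -0.43, 0.25 and 0.21 in KO lines and -0.05, -0.38 and 0.20 in WT lines. KO MEFs 3 and WT MEFs 2, the lines that stood apart, were each the lowest of all 8 lines for 8 of 19 enzymes, and KO MEFs 1 was the highest for 10. These lines were the lowest for 17.0% and 20.8% of all genes tested, and KO MEFs 1 was the highest for 10.2%. Cell cycle genes summed to 2111, 3316, 3496, 2022 and 2133 CPM in KO lines and to 1919, 3408 and 2103 CPM in WT lines. Unlike in neurospheres, the 3 MEF lines with the highest cell cycle sums had the 3 lowest enzyme sums. They were KO MEFs 2, KO MEFs 3 and WT MEFs 2. Single markers of several cell types also set KO MEFs 3 and WT MEFs 2 apart, in both directions within a list. The genes given were chosen after their values were seen. The fibroblast marker Thy1 had 129 CPM in KO MEFs 3 and 104 CPM in WT MEFs 2, against 558 to 749 CPM in the other 6 MEF lines. Its list was divided, as Col3a1 was higher in these lines, with 4891 and 4138 CPM against 959 to 2042 CPM. Lum was higher too, with 112 and 106 CPM against 2.78 to 27.6 CPM. The neuronal marker Map2 had 80.2 CPM in KO MEFs 3 and 146 CPM in WT MEFs 2, against 8.33 to 13.4 CPM. The neural stem marker Sox2 had 10.7 and 47.8 CPM in these lines, against 0 to 5.66 CPM. Genes of the same lists also went the other way: Tubb3 had 18.9 and 10.4 CPM there, against 61.0 to 121 CPM. Nes had 34.0 and 16.2 CPM, against 67.3 to 160 CPM. Neuron markers summed to 126 and 188 CPM in these lines, against 127 to 157 CPM in the others. Astrocyte markers summed to 382 CPM in KO MEFs 3 and 251 CPM in WT MEFs 2, against 68.02 to 152 CPM. Nearly all of this was Gja1, with 380 and 248 CPM, while Gfap and Aqp4 had no counts in any MEF line. The fibroblast marker sums of 26879 and 21183 CPM in these lines lay beside 17639 to 25265 CPM in the others. The part of the cell cycle and of these markers in the enzyme levels was not tested.

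Genes of fatty acid synthesis, many of them targets of SREBP1, also varied among MEF lines. The summed level of 15 such genes was 2722, 1678, 1364, 2144 and 2148 CPM in KO MEFs 1 to 5 and 1941, 1329 and 2624 CPM in WT MEFs 1 to 3. The lowest lines of each genotype were again KO MEFs 3 and WT MEFs 2. In neurospheres the same sum stayed within 3491 to 3742 CPM in KO lines and 3298 to 3737 CPM in WT lines, while the cholesterol enzymes spanned 666 to 2246 CPM there. The stearoyl-CoA desaturase gene Scd2 made up much of this sum, with 1782 to 1901 CPM in KO lines and 1493 to 1950 CPM in WT lines. Without Scd2 the neurosphere sum was lowest in KO neurospheres 2, at 1590 CPM, against 1787 to 2024 CPM in the other lines. In MEFs Scd2 also weighed on the sum, with 402 to 1296 CPM in KO lines and 397 to 1248 CPM in WT lines. Single fatty acid genes varied more. KO neurospheres 2 was the lowest of the 6 lines for 7 of the 15, beside 25.6% of all genes tested. The 7 were Acly, Acaca, Fasn, Scd1, Elovl5, Elovl6 and Mid1ip1. The fatty acid synthase gene Fasn had 86.8, 51.1 and 109 CPM in KO lines and 80.04, 109.8 and 96.3 CPM in WT lines.

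**Figure D3:**
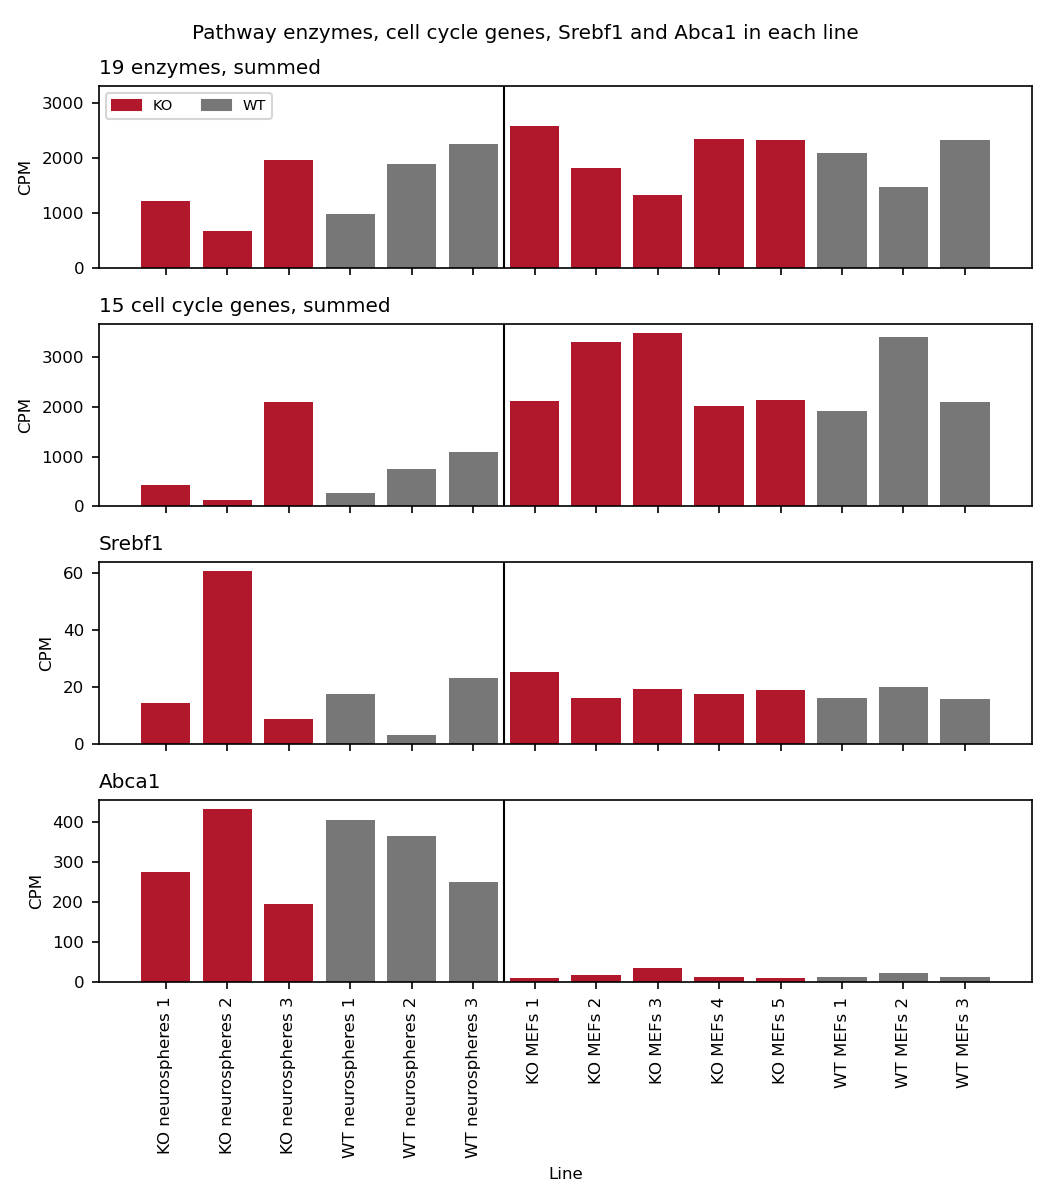
Bars give the level in CPM in each line, KO in red left of WT in grey, for the 19 enzyme genes summed, 15 cell cycle genes summed, Srebf1 and Abca1. The enzyme sum is lowest in KO neurospheres 2 (666 CPM), where Srebf1 (60.7 CPM) and Abca1 (432 CPM) are at their highest.

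The genes around the pathway gave no further calls. Of 19 genes for SREBP cleavage and retention in the endoplasmic reticulum, 10 were positive and 9 negative in KO against WT neurospheres (median log2 0.02) and 7 positive and 12 negative in MEFs (median -0.06), and none passed edgeR's test in either. Among them Rnf139, a ubiquitin ligase gene of this system, had an unadjusted p of 0.0302 in MEFs, with 41.8 ± 2.33 CPM in KO lines (n = 5) and 53.8 ± 7.25 CPM in WT lines (n = 3) and an edgeR adjusted p of 1.00. Fatty acid genes were positive for 5 of 15 in neurospheres (median -0.08) and 12 of 15 in MEFs (median 0.06). Of 8 genes of LXR and its targets 5 were tested in neurospheres and 6 in MEFs, with 2 positive in each. Arl4c, an LXR target, averaged 57.5 ± 7.40 CPM in KO and 94.7 ± 17.6 CPM in WT neurospheres (log2 -0.71, unadjusted p = 0.0164, edgeR adjusted p = 1.00, n = 3 each).

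Genes of sterol uptake, transfer and esterification had 2 of 13 tested members positive in neurospheres (median -0.20) and 4 of 13 in MEFs (median -0.07). Genes that use isoprenoids had 9 of 14 positive in neurospheres (median 0.18) and 8 of 14 in MEFs (median 0.05). None of these passed edgeR's test. The 15 cell cycle genes had 14 positive values in neurospheres (median 0.45) and 11 in MEFs (median 0.04), and none passed. Macrophage, microglia and blood markers summed to 19.4 to 90.8 CPM in KO MEFs and 64.4 to 186 CPM in WT MEFs, with all 8 tested markers negative and none called. These were at most 2.48 CPM in every neurosphere line.

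The level of the pathway in the cell types was compared in KO neurospheres against KO MEFs, and, in other libraries, in WT neurospheres against WT MEFs. Of the 27 genes, 12 passed edgeR's test in KO lines, 4 higher and 8 lower in neurospheres, where 51.6% of 11413 genes were called, 25.4% higher and 26.2% lower. Over single lines left out 8 to 15 members passed in KO lines. In WT lines 5 passed, 3 higher and 2 lower, where 41.6% of 11080 genes were called, 20.8% higher and 20.8% lower. In each genotype the total share called among the 27 was below that of all genes. The share called lower in KO lines, 8 of 27 against 26.2% of all genes, was not below. These differences were not tested. All 5 genes called in WT lines were among the 12 called in KO lines, and 22 of 27 genes had the same sign in both. Positive values were found for 9 genes in KO lines (49.7% of all genes) and 10 in WT lines (50.7% of all genes), and medians were -0.62 in KO and -0.26 in WT lines. The lines of the cell types did not overlap for 10 genes in KO lines (49.8% of all genes) and for 11 in WT lines (57.1% of all genes).

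Abca1 had the largest difference of the 27 genes. It had 276, 432 and 196 CPM in KO neurospheres and 10.01, 18.5, 35.9, 12.8 and 11.7 CPM in KO MEFs. In WT lines it had 404, 365 and 250 CPM in neurospheres and 13.9, 23.7 and 12.8 CPM in MEFs. Every neurosphere line was far above every MEF line. The log2 difference was 4.12 in KO lines (SE 0.43, edgeR adjusted p = 6.12e-05) and 4.36 in WT lines (SE 0.34, edgeR adjusted p = 1.48e-04). Macrophage, microglia and blood markers summed to 0 to 2.48 CPM in the neurosphere lines. Their sums were 19.4 to 90.8 CPM in KO MEFs and 64.4 to 186 CPM in WT MEFs. The part of such cells in the Abca1 levels was not tested.

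Npc1 was also higher in every neurosphere line, with 193, 89.6 and 74.9 CPM in KO neurospheres against 39.0, 26.0, 30.1, 30.2 and 25.3 CPM in KO MEFs. In WT lines it had 214, 90.6 and 125 CPM in neurospheres and 29.0, 37.4 and 33.2 CPM in MEFs. Log2 differences were 2.01 in KO lines (SE 0.31, edgeR adjusted p = 5.01e-04) and 2.13 in WT lines (SE 0.34, edgeR adjusted p = 0.00234). Tm7sf2 averaged 26.9 ± 6.02 CPM in KO neurospheres and 12.7 ± 3.98 CPM in KO MEFs, and 31.0 ± 3.5 CPM in WT neurospheres and 12.9 ± 3.60 CPM in WT MEFs. Its log2 differences were 1.1 (edgeR adjusted p = 0.0103) in KO and 1.30 (edgeR adjusted p = 0.0113) in WT lines, and without KO neurospheres 1 its edgeR adjusted p in KO lines was 0.0570. Tm7sf2 was thus the enzyme gene called higher in neurospheres. Scap was called higher in KO lines alone (log2 0.74, edgeR adjusted p = 0.0205); its edgeR adjusted p was 0.0516 without KO MEFs 1 and 0.0818 without KO neurospheres 3. Whether it differed between genotypes in this was tested in the interaction, which did not call it.

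Acat2 and Stard4 were lower in neurospheres in both genotypes. Acat2 averaged 15.6 ± 8.40 CPM in KO neurospheres against 67.3 ± 18.6 CPM in KO MEFs, and 28.1 ± 3.12 CPM in WT neurospheres against 58.1 ± 20.5 CPM in WT MEFs. The log2 differences were -2.06 in KO lines (SE 0.38, edgeR adjusted p = 0.00152) and -1.03 in WT lines (SE 0.30, edgeR adjusted p = 0.0283). The WT call was lost on leaving out any single WT line but WT MEFs 2, with edgeR adjusted p from 0.0513 to 0.103. Stard4 averaged 19.2 ± 14.1 CPM in KO neurospheres against 56.1 ± 15.3 CPM in KO MEFs, and 24.4 ± 10.3 CPM in WT neurospheres against 57.4 ± 10.1 CPM in WT MEFs. Log2 differences were -1.50 (edgeR adjusted p = 0.0174) in KO and -1.21 (edgeR adjusted p = 0.0312) in WT lines. The WT call of Stard4 was lost on leaving out WT neurospheres 2 (edgeR adjusted p = 0.0536), and likewise with MEF line 1 (0.0677) or 3 (0.101) of the WT group absent. With 3 lines each, the count of 5 calls in WT lines was 3 without WT MEFs 1 or WT neurospheres 2 and 8 without WT neurospheres 3.

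In KO lines 6 further enzyme genes passed as lower in neurospheres, namely Hsd17b7, Idi1, Ebp, Fdps, Sc5d and Nsdhl. Hsd17b7 had 15.7, 14.4 and 51.5 CPM in KO neurospheres against 132, 113, 88.9, 141 and 165 CPM in KO MEFs. Its log2 difference was -2.19 (SE 0.44, edgeR adjusted p = 0.00244). WT lines gave -1.59, with 10.7, 26.6 and 60.8 CPM in neurospheres against 110, 80.6 and 109 CPM in MEFs and an edgeR adjusted p of 0.0548. Idi1 had a log2 difference of -1.88 in KO lines (SE 0.42, edgeR adjusted p = 0.00469) and -1.18 in WT lines, where WT neurospheres 3 reached the level of the MEFs.

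Ebp had 2.89, 3.01 and 13.7 CPM in KO neurospheres against 19.7, 18.8, 13.1, 23.9 and 22.6 CPM in KO MEFs, with a log2 difference of -1.51 (SE 0.50, edgeR adjusted p = 0.0288). KO neurospheres 3 overlapped the lowest MEF line. The call was lost without KO neurospheres 1 (edgeR adjusted p = 0.0991) or KO neurospheres 2 (0.0957). Leaving out any KO MEF line but line 3 also ended it, with an edgeR adjusted p of 0.0539 for line 1, 0.0536 for line 2, 0.0637 for line 4 and 0.0617 for line 5. Fdps, Sc5d and Nsdhl had log2 differences of -1.48, -1.17 and -0.997 in KO lines. The 15 cell cycle genes were lower in neurospheres too, with 4 called in KO lines and 12 called in WT lines, and their part in these differences was not tested.

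Several genes were not called between the cell types in either genotype. Ggps1 had 78.1 to 104 CPM in KO neurospheres and 67.0 to 82.3 CPM in KO MEFs, and 85.4 to 95.3 CPM in WT neurospheres and 64.4 to 90.1 CPM in WT MEFs. Hmgcs1 had a log2 difference of 0.34 in KO lines and 0.81 in WT lines, and neither passed. Dhcr7 differed by 0.18 in KO and by 1.21 in WT lines, with an edgeR adjusted p of 0.0537 in the WT lines, where every neurosphere line lay above every MEF line. Insig1 differed by -0.09 in KO and 1.1 in WT lines, and Srebf2 by -0.49 in KO and 0.34 in WT lines, none of them called.

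**Figure D4:**
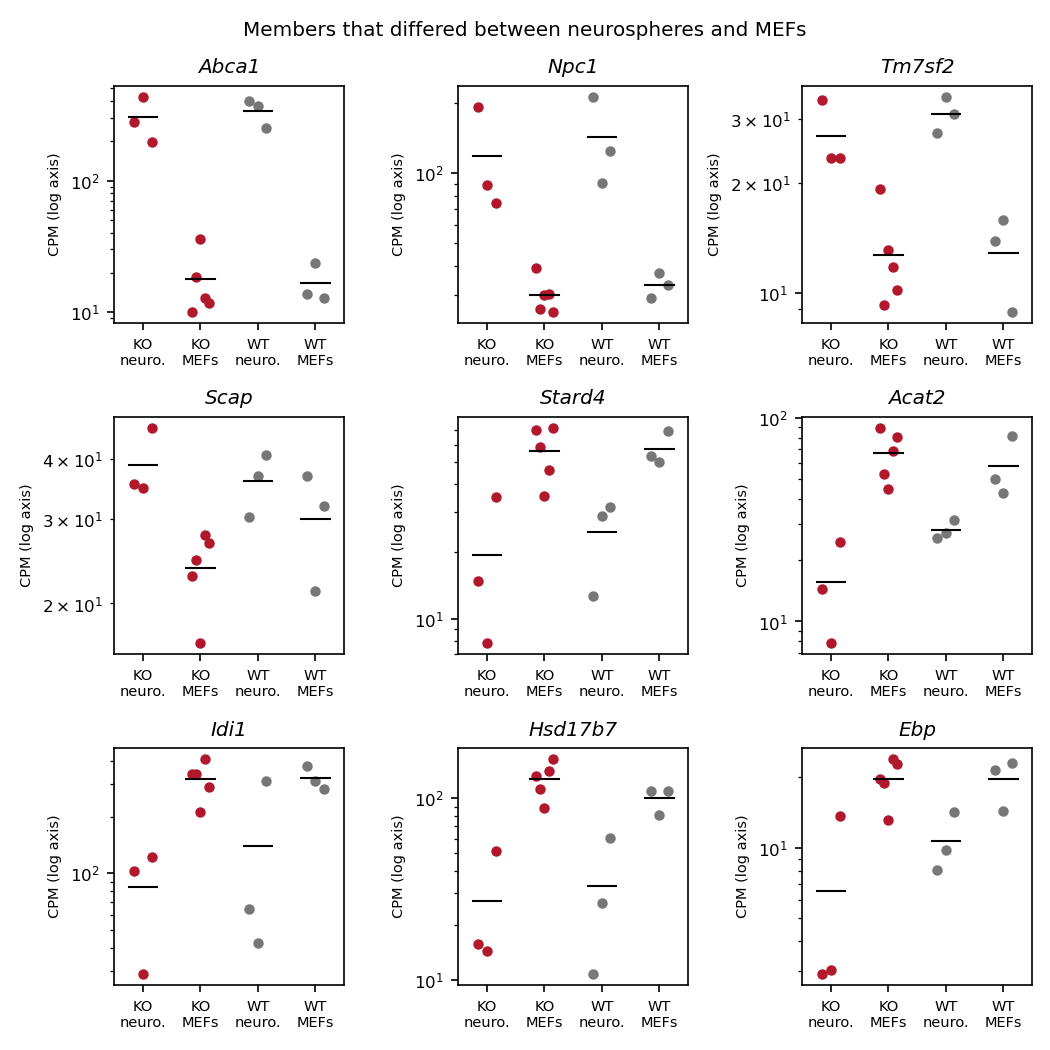
Points are lines, in CPM on a log axis, for 9 genes that passed in at least 1 comparison of cell types, with KO neurospheres, KO MEFs, WT neurospheres and WT MEFs from left to right and a bar at each mean. Abca1, Npc1 and Tm7sf2 lie higher in neurospheres in both genotypes, while Acat2 and Stard4 lie lower.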

How the data were processed

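The deposited files hold expected counts and TPM per transcript, which the authors obtained from Salmon 1.1.0; edgeR is also named, with no version, in the submitters' processing notes. For the transcript set, the build and how reads were mapped the sources used here give nothing. Transcripts were matched to GENCODE M21 (GRCm38): of 116945 per file, 115560 matched by version and length and 385 by identifier; the 1000 others, with 0.251% to 0.425% of reads, were left out. Expected counts were summed per gene and rounded. QuantSeq reads 3′ ends in the sense direction, so CPM is not per length. Levels of different genes were not tested against each other, and a sum over a list weighs its highest genes most.

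In R 4.3.3, edgeR 4.0.16 was run on each comparison by itself (TMM, filterByExpr, robust quasi-likelihood test), using the groups compared, or all 14 libraries for the interaction. Benjamini-Hochberg adjustment ran over all genes tested, with 0.05 as threshold. The 27 genes, the lists around them and the motifs were chosen with earlier results of these data known. By the rule for named genes, full statistics are given for the 6 members with the smallest p and for Srebf2, Insig1, Hmgcs1 and Sqle in each KO comparison, for 4 members in the interaction, and for up to 4 called members each way between cell types; Hsd17b7, Idi1, Ebp and others are given by line as well. Rnf139 and Arl4c were chosen among the list genes the rule allows after their values were seen. The genes most correlated with the members over lines were not used here. Shared transcript ends were sought with blastn 2.17.0 over the last 300 bases (at least 95% identity over 100 bases). Tests were checked on simulated counts, with changes added only to genes above a set mean level and each gene drawn by itself. Changes in members with few counts, and shifts shared by many genes of a line, were thus not covered. Alternatives were DESeq2 1.42.0, RLE size factors, no filter, a filter of 5 CPM, the deposited TPM as log2(TPM + 1) in limma 3.58.1, all libraries in 1 fit, a replicate block, an FDR of 0.1 and each line left out; fits without KO MEFs 3 and WT MEFs 2, which stood apart, and without KO neurospheres 3 and WT neurospheres 2, a pair left out in earlier work on these data, were added after the data were seen.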

Additional observations from a re-analysis of the deposited data

Results flagged for a closer look

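Pmvk, the phosphomevalonate kinase gene, had 30.7 CPM in KO MEFs 1, while the other 4 KO MEF lines lay between 7.20 and 12.5 CPM. The gap of this line to the nearest other was 0.777 of the range of the 5 lines, which is beyond Dixon's 95% limit. All 27 genes were checked in this group and 1 was flagged, where chance flags about 1 in 20.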

How the results depend on the processing

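No member was called in a KO against WT comparison or in the interaction under any alternative run. Of 535 alternative values of named members, 504 kept their direction and side of the threshold, 21 lost the threshold and 10 turned in sign; the 10 are KO against WT MEFs values of Hmgcs1 (5), Insig1 (2), Sqle (2) and Mvk (1). Insig1 ran from -0.073 to 0.36, Hmgcs1 from -0.19 to 0.35 and Sqle from -0.18 to 0.094 over single lines left out; Hmgcs1 was -0.093 with the replicate block and -0.056 without KO MEFs 3 and WT MEFs 2, and Mvk, 0.44 without the block, was -0.0013 with it. The count of genes called in MEFs was 0 with the replicate block and 3 without KO MEFs 3 and WT MEFs 2. In neurospheres it was 7 with DESeq2, 2 with no filter, 3 without KO neurospheres 3 and WT neurospheres 2, and 0 to 2 over single lines left out. DESeq2 called 3 genes in the interaction, whose member median ran from -1.05 to -0.17 over lines left out. Members called in WT neurospheres against WT MEFs were 11 at an FDR of 0.1, 8 with DESeq2, 8 with TPM, 9 with all libraries in 1 fit and 3 to 8 over lines left out. In KO neurospheres against KO MEFs the replicate block called 3295 genes and 5 members (Abca1, Npc1, Hsd17b7, Acat2 and Idi1), and 8 to 15 members were called over lines left out. Lines with the same replicate number did not deviate together: correlations were 0.11, -0.09 and 0.18 between KO and WT neurospheres and 0.02, -0.25 and -0.54 between KO and WT MEFs for numbers 1, 2 and 3, so the numbers were not taken as pairs. With the block no member was called in either KO against WT comparison, and the member median was -0.29 in neurospheres and -0.0013 in MEFs. Causes of these changes were not tested. Some counts were small at this depth (8 for Fdft1 and 5 for Ebp in KO neurospheres 2). Interval width in KO against WT neurospheres did not simply follow the counts. Idi1, with 48 to 877 counts per neurosphere line, had a 95% interval from -2.77 to 1.35. Tm7sf2, with 39 to 87 counts, had one from -0.81 to 0.42.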
